A study of Mus musculus with 8 samples.

Results

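The RNA levels of 10 genes of neutrophils and of myeloid suppressor cells were read in N2A tumors: S100a8, S100a9, Csf3r, Cxcr2, Ly6g, Mmp8, Mmp9, Retnlg, Il1b and Arg1. These 10 genes, of 35458 genes with a symbol in the data, were chosen by name for their role, with earlier results of these data known. None of the 8 that could be tested was called different between SR59230A and vehicle tumors after adjustment over all genes. S100a8 and S100a9 had the highest fold changes of the 8, at log2 fold changes of 2.32 and 2.59, and 1 SR59230A tumor alone held 48.3% and 59.4% of their reads.

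Neutrophils and immature myeloid cells enter tumors from the blood, drawn by chemokines that bind CXCR2 and sustained by the growth factor G-CSF through its receptor. Myeloid-derived suppressor cells (MDSC) are immature cells of this lineage that restrain T cells, among other means by breaking down arginine with arginase 1. In mice, granulocytic cells of this kind carry the surface protein LY6G and are rich in the calcium-binding proteins S100A8 and S100A9.

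Total RNA was sequenced from 8 tumors, 4 from mice given SR59230A, which blocks the β3-adrenergic receptor, and 4 from mice given vehicle, a physiological solution. SR59230A was injected into the peritoneum at 10 mg/kg, 2 times a day. Mice of both groups were female A/J mice (NCI A/JCr), 4 weeks old at purchase, carrying under the skin a tumor grown from 1000000 cells of Neuro-2a (N2A), a neuroblastoma line of the mouse that grows in this strain. Treatment began when a tumor could be felt, and the study describes killing after 8 days of it. The labels number the SR59230A tumors 1 to 4 and the vehicle tumors 0 to 3, and each is a separate sample. Whole tumors were used, so fewer cells of a type and less RNA per cell cannot be told apart here. The study asked whether blocking the β3-adrenergic receptor changes the immune cells of the tumor, and these genes bear on the neutrophil and MDSC side of that question.

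Estimated reads summed to 23484190 to 43675495 in SR59230A tumors and to 28614914 to 44045575 in vehicle tumors. All 12 neuroblastoma markers were found in every tumor, at summed levels of 1453 to 1989 TPM (transcripts per 1000000, a level per length) in SR59230A tumors and 1480 to 2669 TPM in vehicle tumors. The libraries numbered 3 stood apart in both groups. Mitochondrially encoded genes held 7.49% of reads in SR59230A tumor 3 and 6.14% in vehicle tumor 3, against 1.31% to 3.63% in the other 6 tumors. Genes of olfactory receptors, which a neuroblastoma should hardly use, held 0.281% and 0.341% of reads in those 2 libraries and 0.0913% to 0.19% in the others. Skeletal muscle markers summed to 1034 TPM in SR59230A tumor 1, with the other 7 tumors between 13.1 and 92.6 TPM.

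All 10 genes reached their highest CPM (counts per 1000000 reads, scaled between libraries) among SR59230A tumors in tumor 3, the tumor that was highest of the 4 for 31.5% of all 15207 genes tested. In the vehicle group 7 of the 10 were highest in tumor 3, against 33.8% of all genes tested. The part of the libraries numbered 3 in these levels was not tested, and values without 1 of them are given beside many of the results below.

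**Figure D1:**
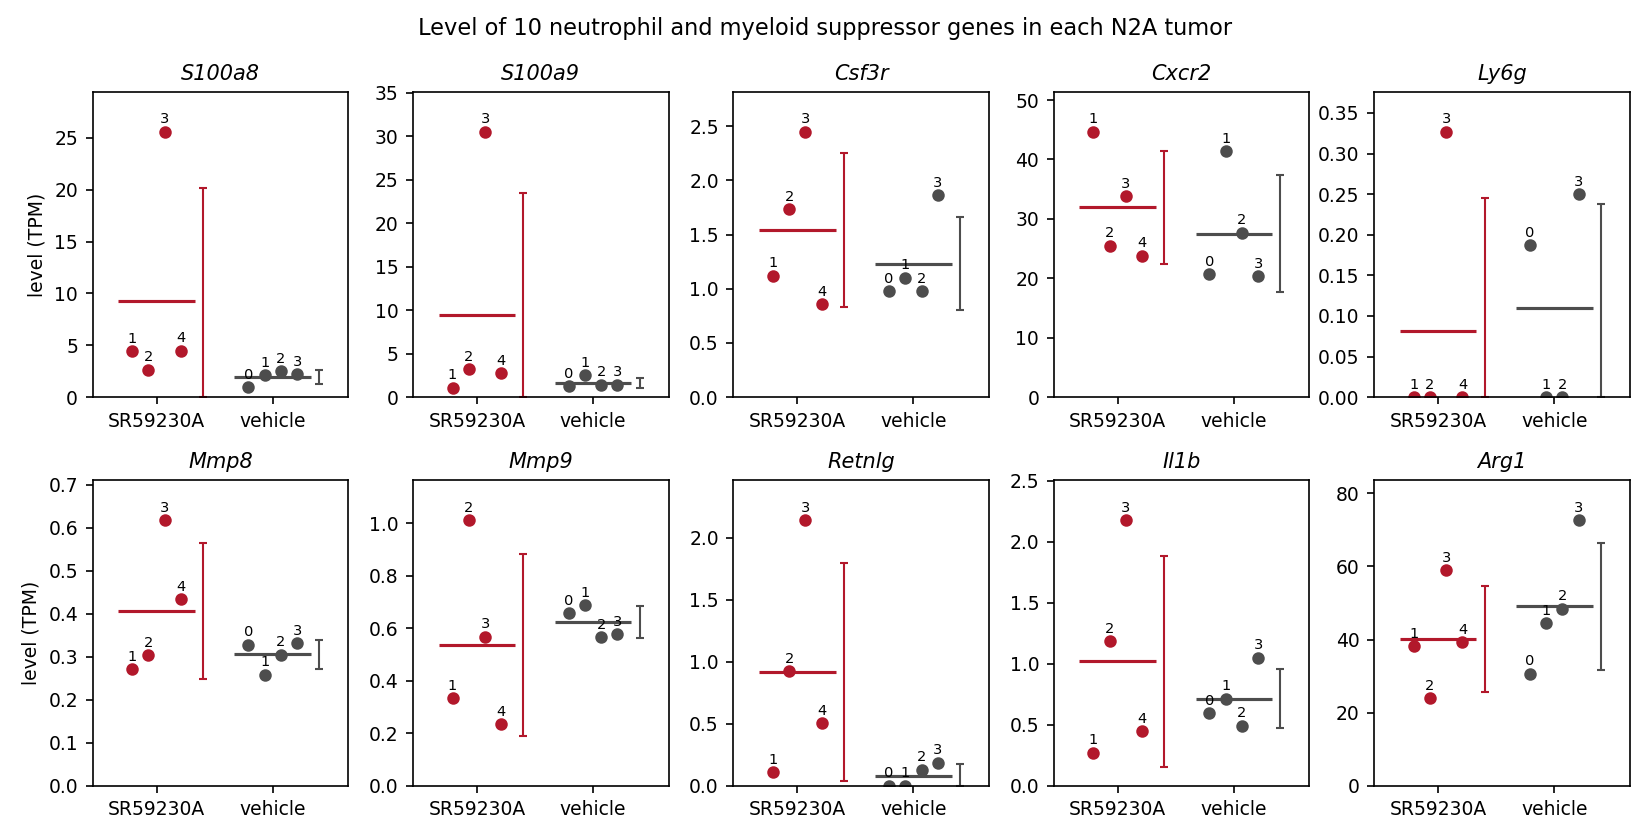
Level in TPM (vertical axis, from 0, scaled for each gene) of the 10 genes in 4 SR59230A tumors and 4 vehicle tumors; each point is a tumor with its number, the horizontal line is the group mean and the bar beside it the SD, cut at 0. SR59230A tumor 3 is highest for S100a8 at 25.6 TPM and for S100a9 at 30.5 TPM, and the groups overlap for every gene but S100a8.

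S100a8 and S100a9 lie side by side on chromosome 3 and encode the subunits of calprotectin, a main protein of the neutrophil cytoplasm. Their promoters are shown because both genes were highest in the same tumor, SR59230A tumor 3. This trait is not particular to the pair: by CPM that tumor was highest of all 8 for 8 of the 10 genes. It was highest for 18.6% of all genes tested. Each window runs from 250 bases before to 50 bases after the RefSeq start (GRCm38.p6), S100a8 at chr3:90668821-90669120 on the plus strand and S100a9 at chr3:90695672-90695971 on the minus strand. Each is written 5′ to 3′ along its gene, with matches to TATAAA, an element of core promoters, and to TTGCNNAA, the form bound by C/EBP factors of myeloid cells, in capitals.
S100a8: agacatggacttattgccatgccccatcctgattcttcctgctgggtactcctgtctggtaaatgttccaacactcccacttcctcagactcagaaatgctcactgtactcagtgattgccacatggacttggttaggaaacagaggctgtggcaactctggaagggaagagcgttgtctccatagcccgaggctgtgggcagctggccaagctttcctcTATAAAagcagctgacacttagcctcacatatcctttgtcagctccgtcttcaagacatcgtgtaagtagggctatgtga
S100a9: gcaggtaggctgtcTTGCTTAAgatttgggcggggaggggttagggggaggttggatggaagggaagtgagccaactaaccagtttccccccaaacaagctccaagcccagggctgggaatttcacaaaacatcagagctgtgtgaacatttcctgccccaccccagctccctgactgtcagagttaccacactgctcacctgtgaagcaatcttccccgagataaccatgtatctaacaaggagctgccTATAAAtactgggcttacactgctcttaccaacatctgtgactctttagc
S100a8 held TATAAA at position -30 from the RefSeq start, whose first base is position 0, and no TTGCNNAA. S100a9 held TATAAA at position 0 and, as TTGCTTAA, the other motif at position -236. Searched on both strands and with no overlap between the motifs, TATAAA stood in 13.6% and TTGCNNAA in 10.8% of 32851 mouse promoter windows of this length. Promoter windows were found for 8 of the 10 genes, all but Mmp9 and Arg1. TATAAA stood in those of 5 genes (S100a8, S100a9, Ly6g, Mmp8 and Il1b) and TTGCNNAA in those of 4 (S100a9, Ly6g, Mmp8 and Retnlg). These matches describe the letters of the windows and were not tied to the levels below.

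S100a8 (ENSMUSG00000056054, chr3:90668978-90670035, GRCm38) had 35, 25, 160 and 42 reads in SR59230A tumors 1 to 4, against 8, 21, 17 and 23 reads in vehicle tumors 0 to 3. Its level was 4.43, 2.66, 25.6 and 4.49 TPM in SR59230A tumors and 0.991, 2.10, 2.50 and 2.19 TPM in vehicle tumors. In TPM all 4 SR59230A values lay above the highest vehicle value, which held for 0.848% of all genes tested, while in CPM tumor 2 of the SR59230A group lay within the vehicle range. The group means were 9.29 ± 10.9 TPM with SR59230A and 1.94 ± 0.658 TPM with vehicle (SD, n = 4 each). The log2 fold change was 2.32 (SE 0.826, edgeR adjusted p = 0.996). By exact permutation of the tumors, two-sided and not adjusted over genes, p was 0.0571, with 0.0286 the smallest that 4 against 4 tumors allow. SR59230A tumor 3 held 48.3% of the gene's reads, and without it the log2 fold change was 0.87 (edgeR adjusted p = 0.997).

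S100a9 (ENSMUSG00000056071, chr3:90692632-90695721) had 11, 39, 233 and 33 reads in SR59230A tumors 1 to 4, against 13, 33, 13 and 17 reads in vehicle tumors 0 to 3. This was 1.09, 3.19, 30.5 and 2.77 TPM in SR59230A tumors and 1.28, 2.50, 1.43 and 1.44 TPM in vehicle tumors. Tumor 3 stood far above the other 7, and tumor 1 of the SR59230A group had the lowest TPM of all 8, so the groups overlapped. The log2 fold change was 2.59 (SE 1.01, edgeR adjusted p = 0.996; exact two-sided permutation p = 0.314), and 0.44 without SR59230A tumor 3 (edgeR adjusted p = 0.997), which held 59.4% of the reads. The level of S100a9 over that of S100a8 in TPM was 0.247, 1.20, 1.19 and 0.618 in SR59230A tumors and 1.29, 1.19, 0.574 and 0.661 in vehicle tumors, so the gene with the higher level was not the same in all tumors of either group.

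A gene was called where its adjusted p was under 0.05 and its log2 fold change at least 0.5 in either direction. On this rule edgeR called 0 of the 8 members that passed the filter on low reads and 0 of all 15207 genes tested (0%). At an unadjusted p under 0.05 it had 706 genes, 338 higher with SR59230A (2.22%) and 368 lower. S100a8 and S100a9 were among those higher, and no other member was on either side. DESeq2 called 37 of 27494 genes (0.135%) and no member, with an adjusted p of 0.249 for S100a8 and 0.698 for S100a9. In CPM the groups overlapped for all 8 members, while they did not for 2.61% of all genes. Of the 8 members, 6 had a fold change above and 2 below 0, with a median log2 fold change of 0.32, against -0.0017 over all genes tested. The median of the 8 was -0.03 without SR59230A tumor 3 and 0.60 without vehicle tumor 3.

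**Figure D2:**
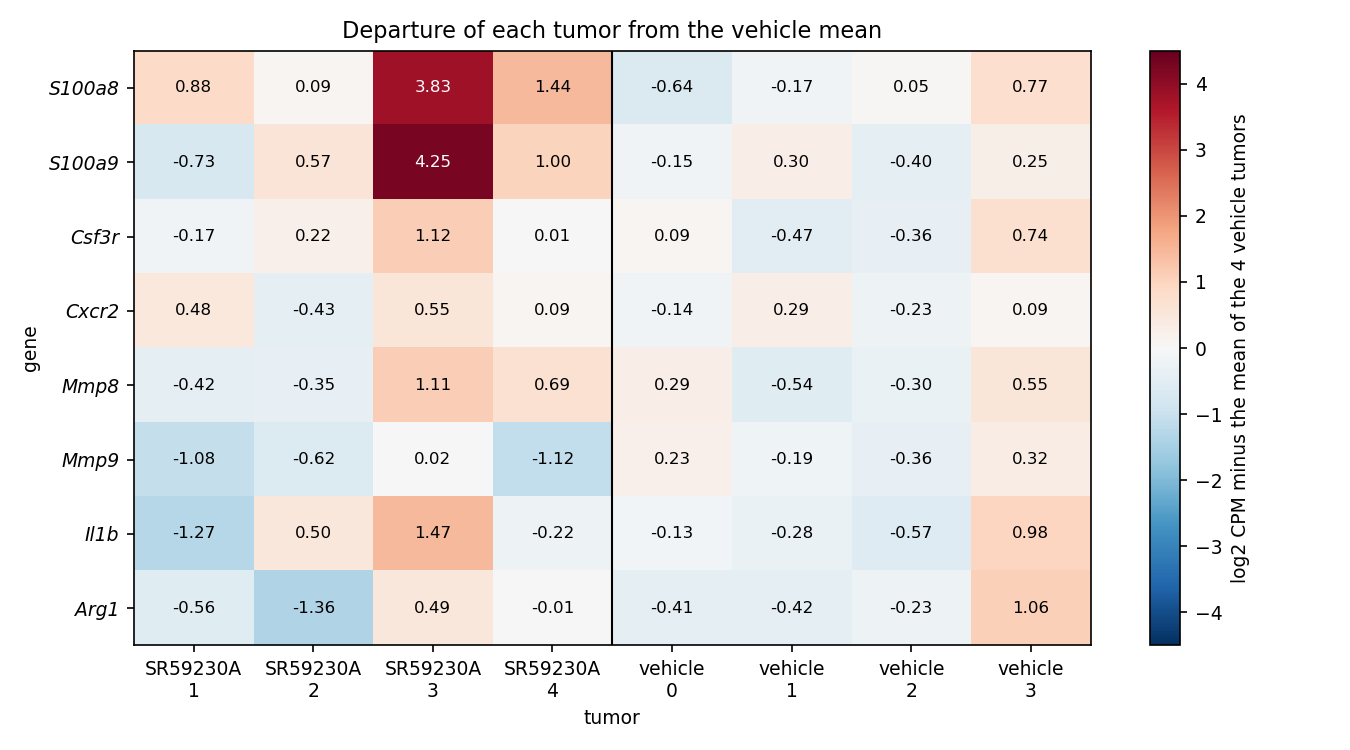
Each cell gives log2 CPM of a gene (rows, the 8 genes tested) in a tumor (columns, SR59230A left and vehicle right) minus the mean of the 4 vehicle tumors, in color and as a number. SR59230A tumor 3 departs by 3.83 for S100a8 and 4.25 for S100a9, while in SR59230A tumors 1, 2 and 4 those 2 genes lie between -0.73 and 1.44.

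Among the receptors, neither Csf3r nor Cxcr2 was called, and both groups overlapped for each. Csf3r (ENSMUSG00000028859, chr4:126024550-126044440), the G-CSF receptor, had 76, 129, 106 and 69 reads (1.12, 1.74, 2.45 and 0.86 TPM) in SR59230A tumors, against 68, 82, 60 and 103 reads (0.976, 1.10, 0.978 and 1.87 TPM) in vehicle tumors. Tumor 3 was the highest of its group in TPM on both sides. Csf3r had a log2 fold change of 0.31 (SE 0.382, edgeR adjusted p = 0.996), and it turned to -0.06 without SR59230A tumor 3 and was 0.62 without vehicle tumor 3. The end of the Csf3r transcript holds a 268-base stretch that aligns with 4853 other genes, and 728 of the 3130 words of 31 bases in Csf3r-201 also occur in transcripts of AC105061.2, so reads could be split among these genes and the level is uncertain.

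Cxcr2 (ENSMUSG00000026180, chr1:74153989-74161246), the receptor for neutrophil chemokines such as CXCL1 and CXCL2, had 3003, 2048, 1771 and 1820 reads in SR59230A tumors, against 1441, 3492, 1653 and 1631 reads in vehicle tumors. Its level was 44.6, 25.5, 33.9 and 23.8 TPM in SR59230A tumors and 20.7, 41.3, 27.7 and 20.4 TPM in vehicle tumors, a mean of 31.95 ± 9.54 against 27.5 ± 9.82 TPM (SD, n = 4 each). The tumors numbered 1 had the highest TPM of both groups. In CPM, SR59230A tumor 3 was the highest, at 86.2 against 81.9 in SR59230A tumor 1. With a log2 fold change of 0.21 (SE 0.213, edgeR adjusted p = 0.996), Cxcr2 was not called. It was 0.07 without SR59230A tumor 3, the lowest of the 8 fits that leave out 1 tumor, and 0.37 without SR59230A tumor 2, the highest.

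The level of Cxcr2 stood far above that of the other neutrophil genes in 7 of 8 tumors, while in SR59230A tumor 3 its 33.9 TPM were close to the 30.5 TPM of S100a9 and 25.6 TPM of S100a8. Its reads were assigned in an uneven way. Of 16859 reads, 99.984% were assigned to Cxcr2-202 and 2.8 reads to Cxcr2-201, though both transcripts hold the same coding sequence of 1077 bases. Cxcr2-202 differs by 828 bases of 3′ untranslated sequence that Cxcr2-201 lacks. In it lie most or all of the bases of a pair of stretches that align with many other genes, bases 1662 to 1883 (222 bases, 2524 other genes) and bases 2423 to 2961 (539 bases, 823 other genes). Cxcr2-201 holds no such stretch. Reads are given per transcript and not per position, so the part of these stretches in the Cxcr2 level was not tested, and the level of Cxcr2 coding RNA is uncertain in both groups.

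**Figure D3:**
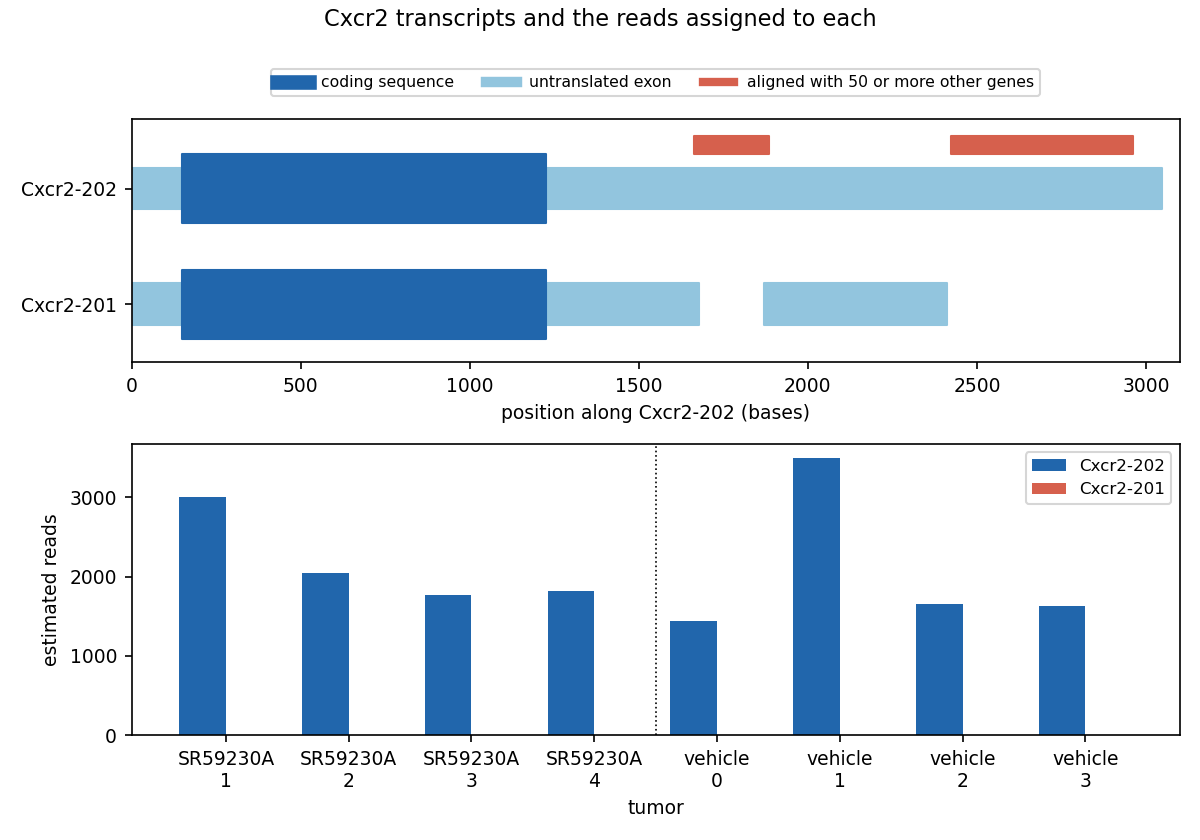
Top, both annotated Cxcr2 transcripts along the bases of Cxcr2-202, with coding sequence in dark blue, untranslated exon in light blue and stretches that align with 50 or more other genes in red. Bottom, estimated reads assigned to each transcript in each tumor (SR59230A left, vehicle right); Cxcr2-202 has 1441 to 3492 reads a tumor and Cxcr2-201 at most 2.0.

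Ly6g (ENSMUSG00000022582, chr15:75155240-75159126), which encodes the surface marker of mouse neutrophils, was near the limit of detection. It had 0, 0, 4 and 0 reads in SR59230A tumors, against 3, 0, 0 and 1 reads in vehicle tumors, and did not pass the filter on low reads. The reads fell in 1 SR59230A tumor and 2 vehicle tumors. A count of 0 allows up to 3 reads, which is 0.069 to 0.0936 CPM in SR59230A tumors 1, 2 and 4 and 0.0684 to 0.0964 CPM in vehicle tumors 1 and 2, by counting error alone. Of the 911 words of 31 bases in Ly6g-202, 87 occur in other genes, most often in the paralog Ly6i, so even these few reads could be split.

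Of the neutrophil granule and secreted proteins, Mmp8 and Mmp9 had fold changes of opposite sign that were not called, and Retnlg had more reads with SR59230A. Mmp8 (ENSMUSG00000005800, chr9:7558456-7568485), neutrophil collagenase, had 14, 19, 25 and 26 reads (0.271, 0.304, 0.617 and 0.434 TPM) in SR59230A tumors, against 18, 17, 14 and 21 reads (0.328, 0.259, 0.305 and 0.332 TPM) in vehicle tumors. SR59230A tumors 3 and 4 had the highest TPM of all 8 and tumors 1 and 2 lay among the vehicle tumors. Mmp8 had a log2 fold change of 0.36 (SE 0.48, edgeR adjusted p = 0.996), -0.01 without SR59230A tumor 3 and 0.58 without vehicle tumor 3.

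Mmp9 (ENSMUSG00000017737, chr2:164940780-164955850), gelatinase B, had 22, 40, 28 and 17 reads in SR59230A tumors, against 43, 57, 34 and 44 reads in vehicle tumors. It was lower with SR59230A in 14 of 16 pairings of an SR59230A with a vehicle tumor by CPM. Its log2 fold change was -0.69 (SE 0.356, edgeR adjusted p = 0.996), with an unadjusted exact two-sided permutation p of 0.0857. The log2 fold change lay between -1.003 and -0.55 when any 1 tumor was left out. The fold change was smaller on scales that account for transcript length, at -0.37 with transcript length offsets and -0.33 on log2(TPM + 0.1). On log2(TPM + 1) it was -0.10, but at levels this low the added 1 also shrinks any fold change. In TPM the order differed: 0.333, 1.01, 0.567 and 0.234 TPM in SR59230A tumors, against 0.657, 0.688, 0.566 and 0.578 TPM in vehicle tumors, so SR59230A tumor 2 had the highest level of all. In that tumor 3 of the 40 reads were assigned to Mmp9-203, a transcript of 416 bases, and to Mmp9-201, of 3175 bases, the other 37.

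Retnlg (ENSMUSG00000022651, chr16:48872621-48874496), a resistin-like protein made by mouse neutrophils and their precursors, had 1, 10, 15 and 5 reads in SR59230A tumors, against 0, 0, 1 and 2 reads in vehicle tumors. Reads were found in all 4 SR59230A tumors and in 2 of 4 vehicle tumors, and the count of tumor 1 with SR59230A lay within the vehicle counts. It did not pass the filter on low reads and was not tested in the main fit. The edgeR fit with no filter on low counts, which took in this gene, called 0 members, and so did DESeq2. Summed over each group, 31 reads against 3 gave a ratio of 10.4 in reads per total reads, with no scaling between libraries. Its exact 95% interval was 3.23 to 52.9, which covers counting error only and not the spread between tumors. The ratio was 6.50 (exact 95% interval 1.86 to 34.8) without SR59230A tumor 3, and 24.3 (4.06 to 992) without vehicle tumor 3, where 1 vehicle read was left. Of the 563 words of 31 bases in Retnlg, 31 occur in its paralog Retnla.

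Il1b and Arg1, an inflammatory cytokine and the arginine-degrading enzyme used by suppressor cells, were not called, and their groups overlapped. Il1b (ENSMUSG00000027398, chr2:129364570-129371139) had 8, 42, 37 and 15 reads (0.272, 1.18, 2.18 and 0.445 TPM) in SR59230A tumors, against 15, 24, 13 and 33 reads (0.594, 0.714, 0.491 and 1.05 TPM) in vehicle tumors. SR59230A tumors held both the lowest and the highest level of the 8. The log2 fold change was 0.33 (SE 0.628, edgeR adjusted p = 0.996), -0.30 without SR59230A tumor 3 and 0.80 without vehicle tumor 3.

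Arg1 (ENSMUSG00000019987, chr10:24915221-24927484) was among the best-counted of the 10, with 1226, 904, 1423 and 1422 reads in SR59230A tumors, against 1006, 1789, 1389 and 2682 reads in vehicle tumors. Its level was 38.3, 23.9, 59.1 and 39.4 TPM in SR59230A tumors and 30.7, 44.4, 48.5 and 72.6 TPM in vehicle tumors, a mean of 40.1 ± 14.4 against 49.1 ± 17.5 TPM (SD, n = 4 each). The tumors numbered 3 were the highest of their groups and the ranges overlapped. The log2 fold change was -0.36 (SE 0.438, edgeR adjusted p = 0.996; exact two-sided permutation p = 0.514), and it turned to 0.14 without vehicle tumor 3. Arg1 is also made by macrophages and other cells, so its level does not mark neutrophils alone.

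**Figure D4:**
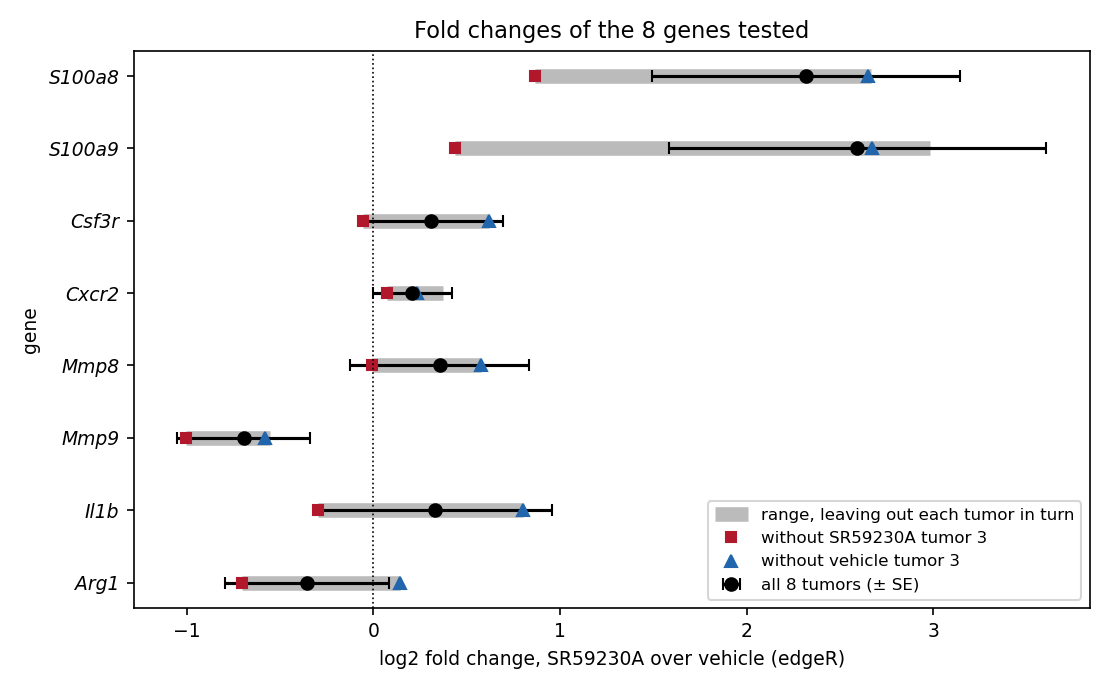
Log2 fold change of SR59230A over vehicle (horizontal axis, edgeR) for the 8 genes tested, with black points and bars for all 8 tumors and their SE, gray bands for the range when each tumor was left out in turn, red squares without SR59230A tumor 3 and blue triangles without vehicle tumor 3. Without SR59230A tumor 3, S100a8 is at 0.87 and S100a9 at 0.44, and Csf3r, Mmp8 and Il1b lie below 0.

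Ordered by their median TPM over the 8 tumors, a level per length, Arg1 came first (41.9 TPM), then Cxcr2 (26.6), S100a8 (2.58), S100a9 (1.97), Csf3r (1.11), Il1b (0.654), Mmp9 (0.572), Mmp8 (0.316), Retnlg (0.158) and Ly6g (0 TPM). The ranges over tumors of each gene and the next in this order overlapped, those of Cxcr2 and S100a8 only through SR59230A tumor 3. Arg1 and Cxcr2 together held 93.2% of the reads of the 10 genes. To see how low a level can be read, each gene was set beside 1093 olfactory receptor genes of the same tumor, whose 95th percentile was 0.9 to 2.73 TPM in SR59230A tumors and 0.862 to 3.58 TPM in vehicle tumors. Arg1 and Cxcr2 lay above it in 8 of 8 tumors, S100a8 in 6, S100a9 in 5 and Csf3r in 3. Mmp9, Retnlg and Il1b lay above it in 1 tumor each and Mmp8 and Ly6g in 0. The median olfactory receptor gene was at 0 TPM in SR59230A tumors and at most 0.0274 TPM in vehicle tumors. A level under the 95th percentile can therefore still lie above most olfactory receptor genes.

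Lists of related genes were described beside the 10, with 0 members called by edgeR or DESeq2 in any of them. Of 12 other neutrophil granule proteins, 2 passed the filter on low reads. Summed over all 12, the level was 5.83, 13.24, 35.69 and 25.2 TPM in SR59230A tumors 1 to 4. In vehicle tumors 0 to 3 the sum was 5.53, 7.81, 13.25 and 8.72 TPM. Chil3, a chitinase-like protein that macrophages also make, had 3.07, 10.7, 10.1 and 16.6 TPM in SR59230A tumors, against 2.73, 1.72, 2.88 and 5.73 TPM in vehicle tumors (log2 fold change 1.62, SE 0.678, edgeR adjusted p = 0.996). Its log2 fold change without SR59230A tumor 3 was 1.55, and tumor 1 of the SR59230A group lay within the vehicle range. Lcn2, an iron-binding granule protein, had 2.47, 1.74, 23.6 and 7.72 TPM in SR59230A tumors, against 1.18, 4.49, 9.32 and 1.78 TPM in vehicle tumors. Its log2 fold change of 1.33 (SE 0.9, edgeR adjusted p = 0.996) was 0.08 without SR59230A tumor 3, the tumor that was also highest for S100a8 and S100a9. The primary granule enzymes were near or at 0: Elane had 0 reads in all SR59230A tumors and at most 2 reads in a vehicle tumor, and Prtn3 had 1 to 7 reads in SR59230A tumors and 6 to 14 in vehicle tumors.

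Of 16 genes of neutrophil surface and maturity 7 were tested, 3 with a fold change above and 4 below 0, at a median of -0.09 (-0.46 without SR59230A tumor 3 and 0.20 without vehicle tumor 3). That median leaves out the genes not tested. Summed over all 16, the level was 4.8, 8.5, 21.1 and 8.6 TPM in SR59230A tumors 1 to 4. In vehicle tumors 0 to 3 the sum was 5.1, 9.2, 9.7 and 7.9 TPM, so SR59230A tumor 3 was the highest. Wfdc21, the gene of this list with the highest mean level, had 1, 2, 31 and 14 reads in SR59230A tumors, against 1, 7, 13 and 2 reads in vehicle tumors, and was not tested. Padi4, which citrullinates histones in neutrophils, was lower in CPM in every SR59230A tumor than in any vehicle tumor, at a log2 fold change of -0.59 (SE 0.293, edgeR adjusted p = 0.996). Its level was 0.956, 0.505, 0.499 and 0.679 TPM in SR59230A tumors and 0.766, 1.11, 1.03 and 0.983 TPM in vehicle tumors, so in TPM the groups overlapped. Over all genes tested, the CPM of the groups did not overlap, in either direction, for 2.61%. Il1r2 had the largest fold change of the 7 tested, at 1.61 on the log2 scale (SE 0.753, edgeR adjusted p = 0.996). It had 3, 16, 22 and 32 reads in SR59230A tumors, against 5, 6, 5 and 10 reads in vehicle tumors.

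Lists of receptors, growth factors, chemoattractants and signaling genes were described next, and not every gene in them acts on a member. S100A8 and S100A9 bind TLR4 and RAGE, and of the 4 receptor genes listed, Bsg was the highest at a mean of 366 TPM, then Cd36 (15.95 TPM), Tlr4 (4.69 TPM) and Ager (1.06 TPM), with a median log2 fold change of 0.13 (-0.05 without SR59230A tumor 3 and 0.29 without vehicle tumor 3). Of 12 growth factors and chemoattractants 7 were tested, 4 above and 3 below 0, at a median of 0.03 (-0.11 without SR59230A tumor 3 and 0.42 without vehicle tumor 3), led by Pf4 (38.3 TPM), Il6 (12.6 TPM), Csf1 (9.79 TPM) and Cxcl1 (7.41 TPM). Csf3, which encodes G-CSF, was not tested, with at most 0.153 TPM in any tumor. Of 12 genes listed for CXCR2 and G-CSF receptor signaling, a ligand and other chemokine receptors among them, 9 were tested. Those tested were 2 above and 7 below 0, at a median of -0.03. Gnai2 (78.0 TPM), Stat3 (72.7 TPM), Jak1 (58.5 TPM) and Grk2 (20.98 TPM) were the highest of the list.

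Of 10 genes of the IL-1 system 8 were tested, 7 above and 1 below 0, at a median log2 fold change of 0.18, with mean levels of 9.63 TPM for Gsdmd, 5.36 TPM for Il1rap, 3.26 TPM for Il1r1 and 1.81 TPM for Il1rn. Of 6 inhibitors of metalloproteinases 4 were tested and all 4 had a fold change above 0, at a median of 0.15. Among them Timp3 had 5.27, 3.89, 5.55 and 4.40 TPM in SR59230A tumors, against 2.79, 2.71, 3.32 and 2.60 TPM in vehicle tumors, with a log2 fold change of 0.74 (SE 0.244, edgeR adjusted p = 0.996) and 0.59 without SR59230A tumor 3. Every SR59230A tumor lay above the vehicle tumors in TPM, which held for 0.848% of all genes tested, though the groups overlapped in CPM. Timp2 (31.3 TPM), Timp1 (17.96 TPM) and Reck (2.13 TPM) differed by 0.17, 0.02 and 0.12 on the log2 scale.

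Of 8 genes of arginine metabolism 7 were tested, 4 above and 3 below 0, at a median of 0.01 (-0.12 without SR59230A tumor 3 and 0.03 without vehicle tumor 3). Asl, which makes arginine from argininosuccinate, had 40.7, 49.8, 38.4 and 39.8 TPM in SR59230A tumors, against 52.2, 86.4, 67.6 and 31.7 TPM in vehicle tumors (log2 fold change -0.48, SE 0.147, edgeR adjusted p = 0.996). Odc1 (480 TPM), Slc7a1 (60.4 TPM) and Oat (24.5 TPM), the other genes of this list with the highest levels, differed by -0.29, 0.06 and 0.01 on the log2 scale. Of 14 suppressor effectors and regulators 9 were tested, 5 above and 4 below 0, at a median of 0.02 (-0.19 without SR59230A tumor 3 and 0.44 without vehicle tumor 3), with Stat3, Wfdc17 (36.9 TPM), Cebpb (31.5 TPM) and Tgfb1 (17.4 TPM) the highest. Of 8 paralogs of Ly6g 4 were tested, 3 above and 1 below 0, at a median of 0.31 (-0.03 without SR59230A tumor 3, 0.53 without vehicle tumor 3 and 0.37 without both), with mean levels of 5.90 TPM for Ly6e, 5.39 TPM for Ly6a, 5.21 TPM for Ly6c1 and 1.06 TPM for Ly6c2.

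**Figure D5:**
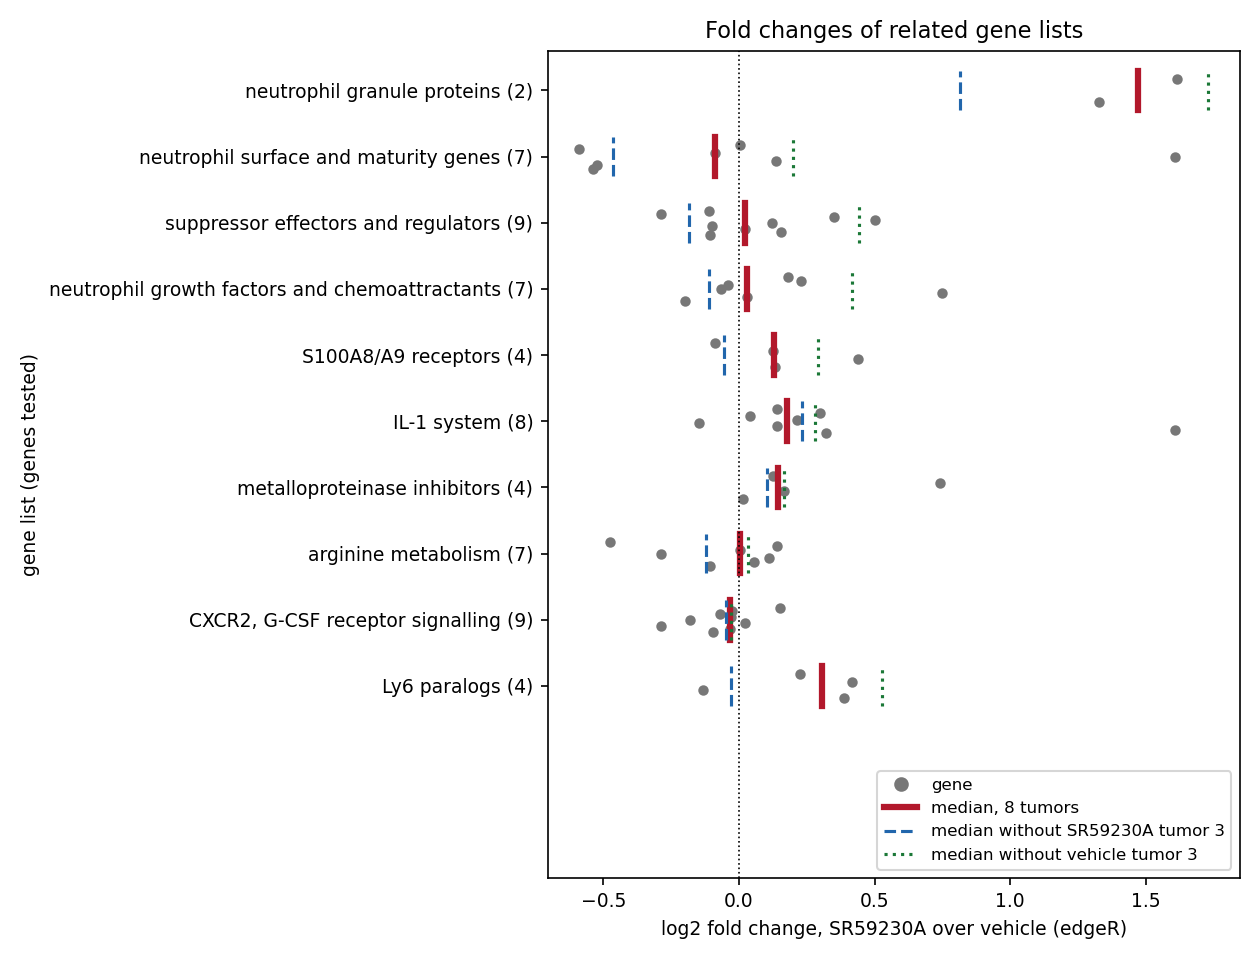
Log2 fold change of SR59230A over vehicle (horizontal axis, edgeR) for the tested genes of 10 related lists, with gray points for genes, a red bar for each list's median over all 8 tumors, a dashed blue bar for the median without SR59230A tumor 3 and a dotted green bar for that without vehicle tumor 3. The median of the granule proteins rests on 2 genes, Chil3 and Lcn2, and the other medians over all 8 tumors lie between -0.09 and 0.31.

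Markers of other cells were summed in TPM per tumor, and none of the 12 lists had a gene called by edgeR (DESeq2 called Ttn and Ckm of skeletal muscle). Leukocyte markers, led by Fcer1g and Tyrobp, summed to 82.1 to 117 TPM in SR59230A tumors and 70.5 to 121 TPM in vehicle tumors. Those of monocytes and macrophages, led by Lyz2 and Mrc1, summed to 214 to 424 TPM with SR59230A and 175 to 347 TPM with vehicle, and macrophages can also make Arg1 and Il1b. In SR59230A tumor 3, where S100a8 and S100a9 were highest, these 2 sums were 107 and 311 TPM, within the range of the other tumors. Markers of dendritic cells (Zbtb46, Itgax) summed to 9.57 to 16.4 and 11.3 to 15.6 TPM, of T and NK cells (Trac, Cd8b1) to 1.90 to 3.66 and 3.27 to 5.79 TPM, and of B and plasma cells (Ms4a1, Jchain) to 1.80 to 4.32 and 1.14 to 4.00 TPM in SR59230A and vehicle tumors. Those of eosinophils and mast cells (Il5ra, Kit) summed to 1.06 to 2.03 TPM with SR59230A and 0.943 to 2.44 TPM with vehicle.

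Keratinocytes, which can also make S100a8 and S100a9, left little RNA: their 13 markers, led by Lor and Krt10, summed to 0.124 to 1.27 TPM in SR59230A tumors and 0.5 to 1.55 TPM in vehicle tumors, none passed the filter and 2 were at 0 in all tumors. In SR59230A tumor 3 the sum was 1.27 TPM. Erythroid genes, led by Hbb-bs and Hba-a1, summed to 104 to 322 TPM with SR59230A and 120 to 660 TPM with vehicle, and SR59230A tumor 3 had 193 TPM. Markers of fibroblasts (Fbln1, Col3a1) summed to 240 to 548 and 225 to 350 TPM, and those of endothelium (Pecam1, Cdh5) to 41.5 to 58.2 and 40.9 to 65.7 TPM in SR59230A and vehicle tumors. The part of these cells in the levels of the 10 genes was not tested.

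The genes whose log2 CPM ran most like that of a member over the 8 tumors are given as a description, with Pearson r over points that share library and depth. For S100a9 they were Ttc38 (r = 0.973), Aldh6a1 (0.967), Rpl22l1 (0.964), Olfr11 (0.954) and Gm11127 (0.951), and S100a8 had r = 0.876. SR59230A tumor 3 lay far above the other points for S100a9, and on ranks Spearman's rho was 0.905, 0.667, 0.833, 0.952 and 0.810 for these 5 genes and 0.476 for S100a8. For Il1b they were Gpat3 (r = 0.970), Gm14548 (0.968), Nceh1 (0.952), Trim14 (0.951) and Ddit3 (0.949), and the nearest member was Csf3r (0.882). For Mmp9 they were Slc37a3 (r = 0.969), Mgst2 (0.969), Zfyve28 (0.956), Gpr55 (0.952) and 1520401A03Rik (0.949), and Il1b had r = 0.601. For Arg1 they were Ccdc68 (r = 0.979), Gja1 (0.975), Gm29397 (0.967), Zfp953 (0.953) and Zfp677 (0.953), and the nearest member was Mmp8 (0.707). With 8 points and this many genes, values of this size give only the order of likeness.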

How the data were processed

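Total RNA libraries (TruSeq Stranded Total RNA Gold) were made from 8 tumors, per the labels. The authors quantified transcripts with Salmon 1.5.1 against the GRCm38.98 transcriptome, per the study's methods, while the submitters' processing notes name GRCm39, and the strand setting is not given in the sources used here. The deposited files hold estimated counts and TPM per transcript for each tumor. The authors also deposited DESeq2 normalized counts (a signal scaled between libraries), which hold 7 of the 10 genes (not S100a9, Csf3r and Il1b) and served as an alternative.

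Of 116747 transcripts, 115685 (99.09%) had their identifier in GENCODE M21 (GRCm38), and estimated counts and TPM were summed per gene, the counts then rounded. Groups were compared with edgeR 4.0.16 (R 4.3.3) by its quasi-likelihood test, after filterByExpr and TMM scaling, with Benjamini-Hochberg adjustment. Log2 CPM with a prior count of 2 were compared by exact permutation over 70 assignments of the tumors. All permutation p-values given here are unadjusted. The fit was tested on simulated data. Alternatives used DESeq2 1.42.0 and limma 3.58.1, other scaling, filters, length offsets and pseudocounts of 0.1 and 1 on TPM, the replicate number as a block, the tumors numbered 1 and 2 or the others alone because the study describes duplicates, and each tumor left out. Stretches shared with other genes were found with BLAST 2.17.0 (at least 60 bases) and as shared words of 31 bases. Genes named from related lists were up to 4 with the highest mean TPM, those called and those whose groups did not overlap in CPM; from marker lists, up to 2 with the highest mean TPM. Any other gene was named after its values were seen (Elane, Csf3, Il1r2, Ttn and Ckm). The 10 genes and the lists were chosen with earlier results of these data known. No batch is named in the labels.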

Additional observations from a re-analysis of the deposited data

Results flagged for a closer look

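In groups of 4 tumors, a tumor was marked where its gap to the nearest other, as a share of the group's whole range in CPM, passed Dixon's 95% critical value. Chance marks about 1 in 20 groups where values are normal and groups independent. Of 19 groups of the 10 genes examined, 4 were marked. The groups share the same tumors and some hold few reads, so this count cannot be set against that rate. SR59230A tumor 3 was marked high for S100a8 (0.874 of the range), S100a9 (0.925) and Ly6g (1.0). With 0 reads in the other 3 SR59230A tumors, the Ly6g mark would follow from any count in tumor 3, here 4 reads, and it says nothing beyond that. Vehicle tumor 3 was marked high for Arg1 (0.92). These were the libraries with the highest shares of mitochondrial reads in their groups, 7.49% in SR59230A tumor 3 and 6.14% in vehicle tumor 3, and the part of this in the levels was not tested.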

How the results depend on the processing

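No member was called under any of the 22 alternatives. Of 173 fold changes of single members under them, 169 kept their sign. Without SR59230A replicate 3 those of Csf3r (-0.06), Mmp8 (-0.01) and Il1b (-0.30) turned, and without vehicle replicate 3 that of Arg1 (0.14). Leaving out each tumor in turn, Csf3r ranged from -0.06 to 0.62, Mmp8 from -0.01 to 0.58, Il1b from -0.30 to 0.80 and Arg1 from -0.70 to 0.14. Fewer tumors enter these fits, and the cause was not tested. The 0 genes called by edgeR became 37 with DESeq2 and 5 in the tumors not numbered 1 and 2, and 0 to 1 when each tumor was left out (1 without SR59230A replicate 4). With a replicate block edgeR called 2 genes, no member among them, and the log2 fold changes of S100a8 and S100a9 were 1.51 and 1.43. Deviations of same-numbered tumors had r = 0.01, 0.626 and 0.534 for numbers 1, 2 and 3, and those of differently numbered tumors -0.701 to 0.631. Number 1 did not reach the r of 0.1 asked of every pair, and of SR59230A tumors 1 to 3 only tumor 3 correlated best with its own number, so the numbers were not taken as pairs. In the tumors numbered 1 and 2, S100a8 and S100a9 had log2 fold changes of 0.65 and 0.08, and 2.96 and 3.45 in the others, a difference that was not tested. Without both tumors numbered 3, an alternative chosen after seeing the data, they were 1.22 and 0.52. List medians under alternatives were set against the SD, over the 4 SR59230A tumors, of each tumor's median departure from the vehicle mean. Tumor 3 is among these 4, so this SD can be wide. Of 217 list medians, 18 moved by more than it. That of the granule proteins moved to -0.10 with DESeq2 and -0.15 with no filter on low counts, where more genes enter. Above the highest olfactory receptor in place of the 95th percentile, 0 members lay in all 8 tumors, against 2. Depth limited Ly6g, Retnlg, Il1b, Mmp8 and Mmp9, with at most 57 reads in a tumor. It also limited S100a8 and S100a9 outside SR59230A tumor 3, with 8 to 42 and 11 to 39 reads in a tumor.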
